A study of Mus musculus with 6 samples.

Results

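Cd209a, Cd209b, Cd209c, Cd209d, Cd209e and Cd209g are mouse relatives of the human lectin gene CD209, also called DC-SIGN. Their signals were followed across 3 subsets of dermal macrophages that differed in CX3CR1. The 6 genes, of 22180 genes on the array, were selected on the family name with earlier values of these samples known, and each was read from its brightest probe set with that symbol alone. Their levels and differences are therefore descriptions, and no p-value is given for them. A further relative, Cd209f, was measured only by a probe set that also carries the symbol Cd209g.

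The cells were macrophages sorted from the dermis of ear skin of C57Bl/6 mice aged 2 weeks. All mice were Cx3cr1+/gfp, so every group, CX3CR1low cells included, carried green fluorescent protein at 1 of its Cx3cr1 alleles. Cx3cr1 encodes the receptor of the chemokine fractalkine. The subsets were CX3CR1high, CX3CR1int (intermediate) and CX3CR1low cells, with 2 samples each, every sample a pool of 4 mice, and the 2 samples of a subset came from 2 independent litters. Arrays had medians of 4.84 to 4.94 as normalised log2 signal, and 2 arrays per subset limit the precision of all values below. Macrophage markers were high in all samples, with a mean log2 signal of 10.4 and 10.5 in CX3CR1high, 10.4 and 10.6 in CX3CR1int, and 10.6 and 10.5 in CX3CR1low samples over 7 genes that include Adgre1, Csf1r and Cd68. Cx3cr1 itself read 10.55 and 9.51 in CX3CR1high, 7.05 and 6.84 in CX3CR1int, and 5.87 and 7.01 in CX3CR1low samples, so that it set the CX3CR1high samples apart while the other subsets overlapped.

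DC-SIGN and its relatives are C-type lectins. DC-SIGN is a membrane protein that binds mannose-rich or fucose-bearing sugars in the presence of calcium and passes what it binds into the cell. Macrophages and dendritic cells use such lectins to take up microbes and glycoproteins. In human dendritic cells DC-SIGN also adjusts the response to other pathogen receptors. The mouse family arose by local gene duplication, and its members are known as SIGNR proteins. SIGNR1, encoded by Cd209b, is known from macrophages of the splenic marginal zone and of lymph nodes, where it captures bacterial polysaccharides.

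The sequences upstream of the genes show how closely some members resemble each other. They lie mostly outside the transcripts, so they do not say whether a probe set reads more than 1 member, which was not tested. RefSeq promoters of the GRCm38.p6 build, which run from 250 bases before the annotated start to 50 bases from it, were matched for 6 of 6 members and for Cd209f. Cd209f and Cd209g shared an unbroken run of 180 bases, found in 2 of 32851 mouse promoters of this length, their own. In an alignment of the 300-base windows 246 of 281 aligned bases were identical. The last 200 bases of both windows are shown 5′ to 3′ with the part of that run they hold in capitals.
Cd209f, chr8:4105715-4105914, minus strand: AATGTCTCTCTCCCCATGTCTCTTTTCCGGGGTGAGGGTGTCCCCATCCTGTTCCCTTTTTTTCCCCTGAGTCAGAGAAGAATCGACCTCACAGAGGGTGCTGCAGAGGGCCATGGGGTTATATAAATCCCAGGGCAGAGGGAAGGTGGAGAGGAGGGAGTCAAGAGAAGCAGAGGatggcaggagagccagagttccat
Cd209g, chr8:4134586-4134785, plus strand: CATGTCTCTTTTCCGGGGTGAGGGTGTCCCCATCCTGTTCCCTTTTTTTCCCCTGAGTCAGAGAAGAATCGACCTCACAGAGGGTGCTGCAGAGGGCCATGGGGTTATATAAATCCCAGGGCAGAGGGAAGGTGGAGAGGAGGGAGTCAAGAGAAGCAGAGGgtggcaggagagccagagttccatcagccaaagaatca

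Aligned in the same way, Cd209d and Cd209b had 164 identical of 274 aligned bases. The other members shared shorter unbroken runs, shown for the 4 genes that lie next to each other at one end of the cluster. Capitals mark a 12-base run common to Cd209a, Cd209d and Cd209e (TTTCTCTTCCTA) and a 17-base run common to Cd209a and Cd209b (ATAAAAGCTGTAGTCTC). The first occurred in 7 of 32851 mouse promoters (0.0213%), those of Cd209a, Cd209d and Cd209e included. The second occurred in 2 (0.00609%), those of Cd209a and Cd209b themselves. Each run was picked as the longest that its genes share, so these counts are descriptions.
Cd209a, chr8:3748935-3749134, minus strand: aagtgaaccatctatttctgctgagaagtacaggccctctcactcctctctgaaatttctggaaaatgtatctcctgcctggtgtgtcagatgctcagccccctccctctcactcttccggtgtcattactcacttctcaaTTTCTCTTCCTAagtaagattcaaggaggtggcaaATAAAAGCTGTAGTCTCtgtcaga
Cd209e, chr8:3854237-3854436, minus strand: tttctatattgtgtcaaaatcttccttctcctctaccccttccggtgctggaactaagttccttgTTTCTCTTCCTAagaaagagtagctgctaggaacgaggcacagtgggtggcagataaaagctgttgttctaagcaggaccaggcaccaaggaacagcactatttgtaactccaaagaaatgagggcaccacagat
Cd209d, chr8:3878450-3878649, minus strand: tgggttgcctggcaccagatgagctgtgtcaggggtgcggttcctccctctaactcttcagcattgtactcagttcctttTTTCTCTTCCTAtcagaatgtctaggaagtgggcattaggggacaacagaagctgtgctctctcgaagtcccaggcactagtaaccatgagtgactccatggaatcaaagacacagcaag
Cd209b, chr8:3926792-3926991, minus strand: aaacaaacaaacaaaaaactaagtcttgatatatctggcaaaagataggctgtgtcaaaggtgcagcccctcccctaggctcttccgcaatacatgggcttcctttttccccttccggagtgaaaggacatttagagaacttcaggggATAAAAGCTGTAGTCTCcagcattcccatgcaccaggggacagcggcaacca

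Counted in bases from the annotated start, the 12-base run began at -9 in Cd209a, -70 in Cd209d and -85 in Cd209e. The 17-base run began at 26 in Cd209a and -2 in Cd209b, so it lay wholly or mostly past the annotated start. The window of Cd209c shared no run longer than 8 bases with any other member. Motifs were searched as letters on both strands of the 300 bases. CCGGAA, a core of ETS factors, was found in Cd209a, Cd209b, Cd209e, Cd209f and Cd209g and in 14.9% of all mouse promoters. GAGGAA, a core of the macrophage factor PU.1 that shares GGAA with CCGGAA, was found in Cd209d alone and in 28.3% of promoters. TTCNNNNGAA, a STAT6 site, was found in Cd209e (6.95% of promoters), TGANTCA, an AP-1 site, in Cd209f and Cd209g (7.81%), and TATAAA in Cd209a, Cd209f and Cd209g (13.6%). The TATAAA match began at -29 in Cd209f and -43 in Cd209g, on the gene's own strand. In Cd209a it lay from -184 to -179 on the opposite strand. These are matches of letters in RefSeq sequence, and binding of these factors was not measured.

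Cd209d, which encodes SIGNR3, a receptor known from defence against mycobacteria, was far lower in CX3CR1high cells than in both other subsets (probe set 17507184). Its log2 signal was 6.11 and 6.26 in CX3CR1high, 8.97 and 9.73 in CX3CR1int, and 10.05 and 9.35 in CX3CR1low samples. The CX3CR1high samples lay 2.71 below the lowest of the others, and the CX3CR1int and CX3CR1low samples overlapped. The log2 difference was -3.52 ± 0.29 (SE, n = 2 per subset) between CX3CR1high and CX3CR1low cells, the largest decrease among 15529 genes tested. Against CX3CR1int cells it was -3.16 ± 0.29, a signal 8.97-fold lower, while CX3CR1int and CX3CR1low cells differed by -0.35 ± 0.29.

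Cd209g, whose product SIGNR7 is less well known, had the same order of subsets with a wider step between CX3CR1int and CX3CR1low cells (probe set 17498750). It read 4.66 and 5.02 in CX3CR1high, 6.97 and 7.53 in CX3CR1int, and 8.69 and 7.66 in CX3CR1low samples. No 2 subsets overlapped, but the CX3CR1int sample 2 came close to the CX3CR1low sample 2. The differences were -3.34 ± 0.34 between CX3CR1high and CX3CR1low, -2.41 ± 0.34 between CX3CR1high and CX3CR1int, and -0.93 ± 0.34 between CX3CR1int and CX3CR1low cells. The probe set that carries both Cd209f and Cd209g (17507221) was at 6.84 and 7.35 in CX3CR1high, 8.26 and 8.74 in CX3CR1int, and 9.15 and 8.69 in CX3CR1low samples. It moved the same way and less far, by -1.83 ± 0.26 between CX3CR1high and CX3CR1low cells, and cannot say how much of its signal belonged to either gene.

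Cd209b, the gene of SIGNR1, was lower in CX3CR1high cells as well (probe set 17507194). Its signal was 5.06 and 5.07 in CX3CR1high, 6.08 and 6.91 in CX3CR1int, and 7.26 and 6.82 in CX3CR1low samples. The CX3CR1high samples lay 1.01 below the lowest other sample, and the CX3CR1int sample 2 lay above the CX3CR1low sample 2. The differences were -1.98 ± 0.28 between CX3CR1high and CX3CR1low, -1.43 ± 0.28 between CX3CR1high and CX3CR1int, and -0.55 ± 0.28 between CX3CR1int and CX3CR1low cells.

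Cd209a, the mouse gene closest by name to human DC-SIGN and known from dendritic cells that derive from monocytes, gave different answers from its 2 probe sets. The brightest (17507171) read 7.65 and 7.42 in CX3CR1high, 7.28 and 7.54 in CX3CR1int, and 7.49 and 8.0 in CX3CR1low samples. All 3 subsets overlapped in it, and CX3CR1high and CX3CR1low cells differed by -0.21 ± 0.22. The dimmer (17507161) read 5.55 and 4.38 in CX3CR1high, 7.45 and 7.26 in CX3CR1int, and 8.10 and 7.18 in CX3CR1low samples. Here both CX3CR1high samples were lowest, by 1.63 to the nearest other sample, and the difference was -2.68 ± 0.41 against CX3CR1low and -2.39 ± 0.41 against CX3CR1int cells. The CX3CR1high samples of this probe set were 1.17 apart, the widest gap within a subset among all family probe sets.

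Cd209c, the gene of SIGNR2, showed the same conflict. Its brightest probe set (17507218) read 8.45 and 8.83 in CX3CR1high, 8.62 and 8.82 in CX3CR1int, and 8.27 and 8.44 in CX3CR1low samples, a difference of 0.28 ± 0.19 between CX3CR1high and CX3CR1low cells. CX3CR1high samples overlapped with those of CX3CR1int cells and lay barely above those of CX3CR1low cells. Its dimmer probe set (17507209) read 4.28 and 4.24 in CX3CR1high, 4.73 and 5.07 in CX3CR1int, and 5.87 and 5.64 in CX3CR1low samples, with no overlap between any 2 subsets. The difference was -1.495 ± 0.194 between CX3CR1high and CX3CR1low cells. The CX3CR1high mean of 4.26 lay under 4.335, the level below which signals were counted as dim. With 4.335 in its place the dimmer probe set was 2.68-fold lower in CX3CR1high than in CX3CR1low cells, a value that leaves out the SE. Which probe set of Cd209a and Cd209c reports the full transcript was not tested.

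Cd209e, the gene of SIGNR4, was near the dim level throughout (probe set 17507175). It read 4.12 and 3.80 in CX3CR1high, 4.33 and 5.0 in CX3CR1int, and 4.68 and 4.36 in CX3CR1low samples. Its mean over all samples, 4.38, passed the filter at 4.335 narrowly and through the CX3CR1int and CX3CR1low samples only. Both CX3CR1high samples were lowest, by 0.21, and the difference was -0.56 ± 0.25 between CX3CR1high and CX3CR1low cells. The CX3CR1high mean lay under the dim level. With 4.335 in its place the signal was 1.14-fold lower than in CX3CR1low cells, a value that leaves out the SE.

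**Figure D1:**
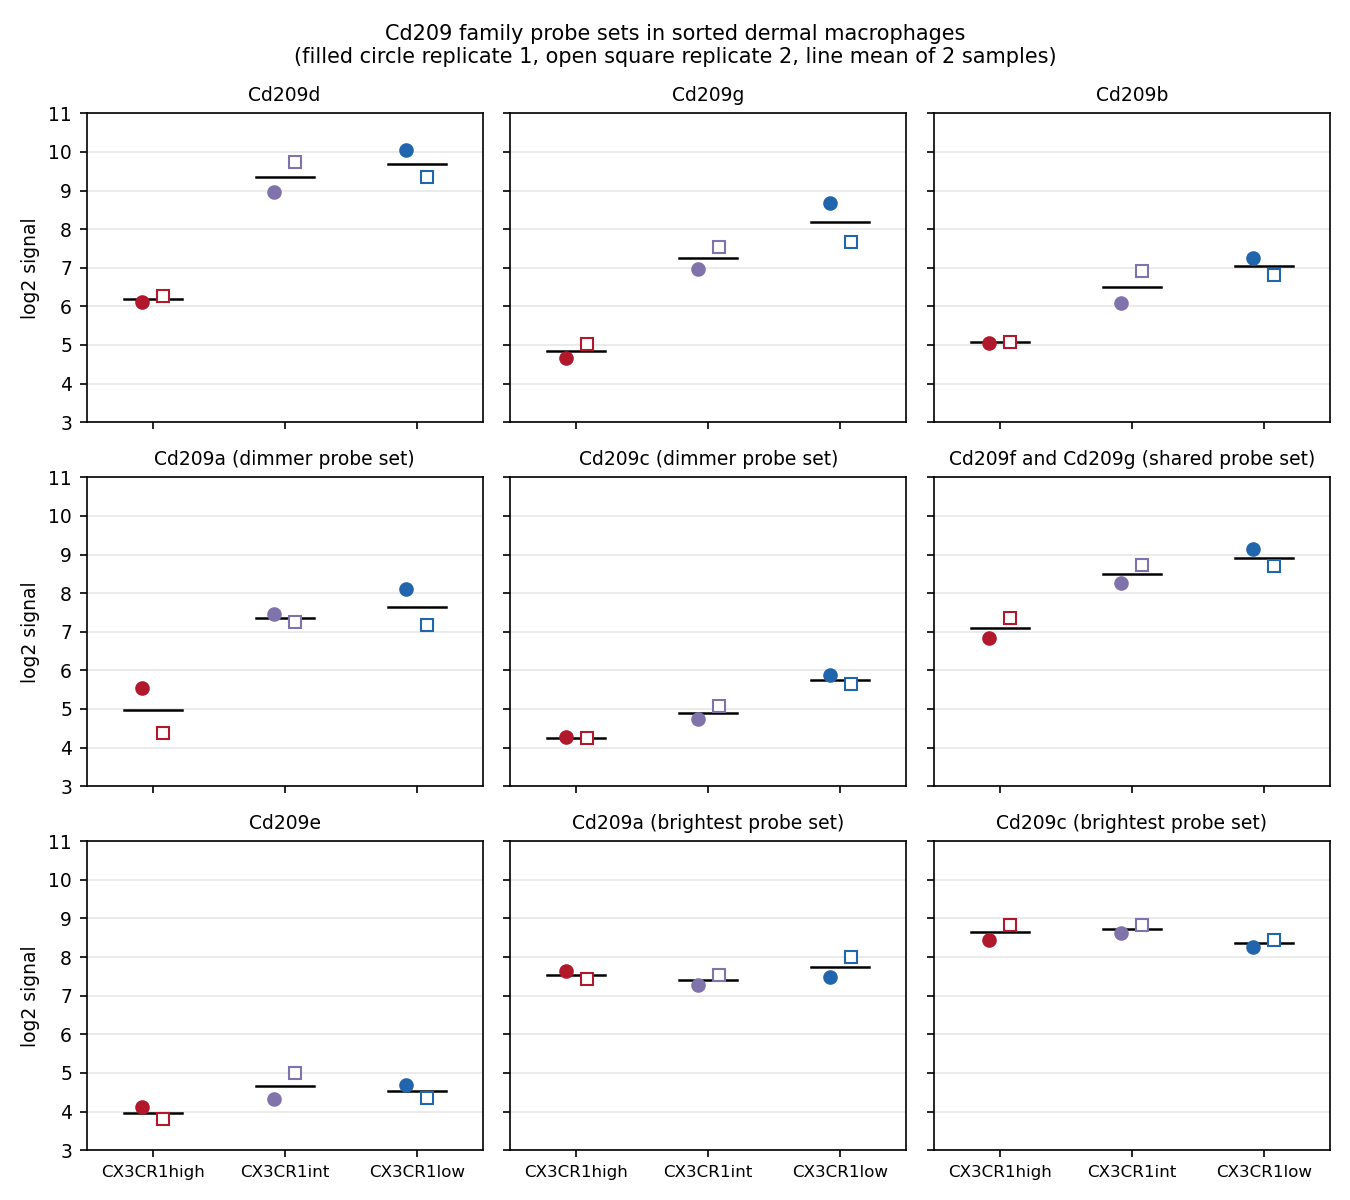
Log2 signal (vertical axis) of 9 Cd209 family probe sets in CX3CR1high, CX3CR1int and CX3CR1low samples (horizontal axis), with replicate 1 as a filled circle, replicate 2 as an open square and the mean of the 2 samples as a line. In 7 panels both CX3CR1high samples lie below the other 4 samples, and in the brightest probe sets of Cd209a and Cd209c they do not.

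Of 9 probe sets of the family, 7 had both CX3CR1high samples below all other samples. By brightest probe set this held for 4 of the 6 members, Cd209b, Cd209d, Cd209e and Cd209g, and it held for 8.83% of all genes tested. All 6 members passed the filter on dim signals, Cd209e as described. In the fit across all genes with limma, 3 of the 6 members (Cd209b, Cd209d and Cd209g) were called lower in CX3CR1high than in CX3CR1low cells at an adjusted p under 0.05, where 0.187% of genes tested were called lower and 0.399% called in either direction. Against CX3CR1int cells 2 members (Cd209d and Cd209g) were called lower, where 0.0644% of genes were called lower and 0.142% in either direction. Between CX3CR1int and CX3CR1low cells 0 members were called and 1 passed an unadjusted p of 0.05, where 0.00644% of genes were called, all lower. Because the members were chosen with these values known, nothing is read from the counts. The samples of a subset serve both comparisons they enter, so the comparisons are not independent.

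Which members were called depended on single arrays. Without the CX3CR1high sample 1 no gene at all was called against CX3CR1low cells by limma, the members included, although 998 genes passed an unadjusted p of 0.05. Without the CX3CR1high sample 2 Cd209d alone stayed called against CX3CR1low cells, and without one or the other CX3CR1low sample Cd209b was not called. Against CX3CR1int cells limma called 0 members when any 1 CX3CR1int or CX3CR1high sample was left out, while 3 or 4 passed an unadjusted p of 0.05, among 789 to 1373 genes in all. The differences themselves moved less, between -3.87 and -3.17 for Cd209d, -3.85 and -2.82 for Cd209g, and -2.20 and -1.76 for Cd209b against CX3CR1low cells. When every probe set was tested on its own, 5 members were called lower against CX3CR1low cells, with Cd209a and Cd209c added through their dimmer probe sets, among 65 genes called in all, 32 of them lower. Between CX3CR1high and CX3CR1int cells Cd209d alone was then called, among 14 genes in all.

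**Figure D2:**
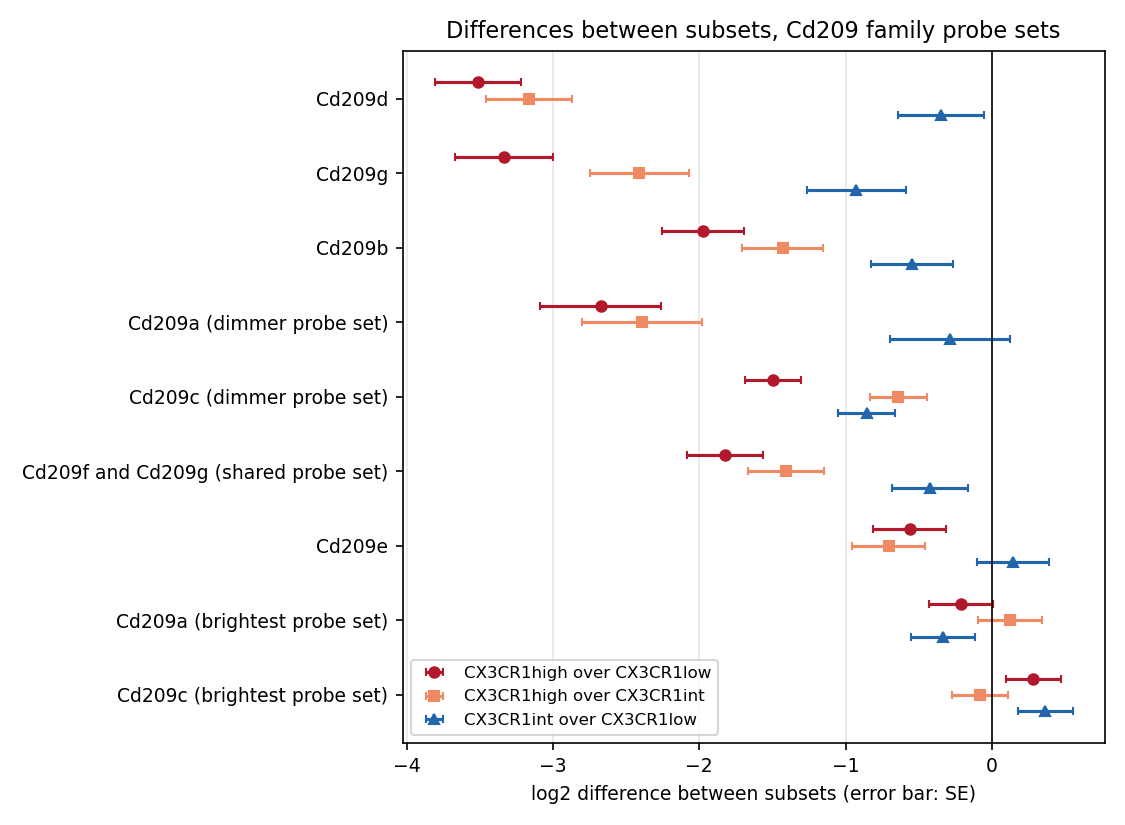
Log2 difference with its SE (horizontal axis) for 9 Cd209 family probe sets (vertical axis) between CX3CR1high and CX3CR1low, CX3CR1high and CX3CR1int, and CX3CR1int and CX3CR1low cells. For Cd209d the step between CX3CR1high and CX3CR1int cells (-3.16) is far larger than that between CX3CR1int and CX3CR1low cells (-0.35), while the brightest probe sets of Cd209a and Cd209c lie near 0.

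In 6 of the 7 probe sets with both CX3CR1high samples lowest, CX3CR1high and CX3CR1int cells differed more than CX3CR1int and CX3CR1low cells. That choice of probe sets favours such an order, which also held for 91.3% of the 1371 genes tested whose CX3CR1high samples were both lowest. The dimmer probe set of Cd209c was the exception, with -0.64 ± 0.19 between CX3CR1high and CX3CR1int and -0.86 ± 0.19 between CX3CR1int and CX3CR1low cells. Cx3cr1 showed the same unequal steps in the opposite direction, 3.09 between CX3CR1high and CX3CR1int and 0.51 between CX3CR1int and CX3CR1low cells. The probe sets also varied alike within the CX3CR1low and CX3CR1int subsets. In all 7 the CX3CR1low sample 1 was above the CX3CR1low sample 2, by 0.23 to 1.03, and in 6 the CX3CR1int sample 2 was above the CX3CR1int sample 1, with the dimmer probe set of Cd209a as the exception. The CX3CR1high samples had no such common order, with sample 1 below sample 2 in 4 of the 7. Over all genes tested 55.2% were higher in the CX3CR1low sample 1, 51.7% in the CX3CR1int sample 1 and 50.8% in the CX3CR1high sample 1. In bulk samples, fewer cells that express a gene and less RNA per cell cannot be told apart.

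Genes that lie beside the family on the chromosome were compared next. In RefSeq order, chromosome 8 holds Cd209a, Cd209e, Cd209d, Cd209b, Cd209c, Cd209f and Cd209g in a row, with no other protein-coding gene between the members but Cd209f. Of the 6 protein-coding genes on each side, 8 were tested and 0 were called by limma in any of the 3 comparisons. An unadjusted p of 0.05 was passed by 0, 1 and 2 of them between CX3CR1high and CX3CR1low, CX3CR1high and CX3CR1int, and CX3CR1int and CX3CR1low cells. Over all 15529 genes tested, 0.399%, 0.142% and 0.00644% were called in these comparisons, and 1499, 1226 and 759 passed the unadjusted p. With shares this small, nothing is read from 0 calls among 8 genes. The neighbours' differences between CX3CR1high and CX3CR1low cells ran from -0.34 in Snapc2 to 0.51 in Mcemp1. Snapc2 encodes a subunit of the complex that starts transcription of small nuclear RNA genes. Mcemp1 encodes a membrane protein of mast cells and other myeloid cells. Fcer2a, the low-affinity IgE receptor, and Clec4g, another lectin gene, are the neighbours on the Cd209a side and lay below the dim level. Clec4g was at 3.85 on average in CX3CR1high, 4.16 in CX3CR1int and 4.12 in CX3CR1low samples. Map2k7 and Tgfbr3l on the other side were not analysed here.

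**Figure D3:**
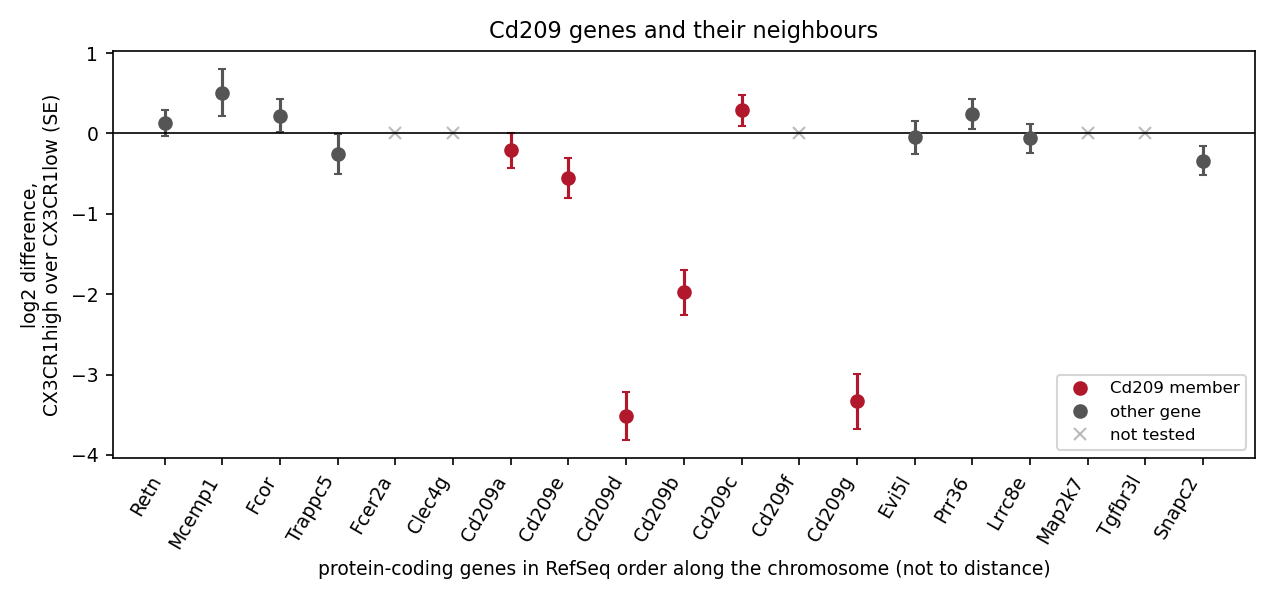
Log2 difference with its SE between CX3CR1high and CX3CR1low cells (vertical axis) for the Cd209 genes in red and their neighbours in grey, in RefSeq order along the chromosome and not to distance (horizontal axis), with crosses at 0 for genes that were not tested. Cd209d, Cd209b and Cd209g stand below the rest, and the tested neighbours lie between -0.34 and 0.51.

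Genes with the most similar profile were sought by Pearson's r over the 6 samples, among 265 genes whose subset means spanned at least 1 log2 unit. The r values describe 6 arrays that all genes share. Klf9, a transcription factor induced by glucocorticoids, was closest to Cd209d (r = 0.996), followed by Egfr, the epidermal growth factor receptor (0.994), Chp2, a calcineurin-like protein that binds ion exchangers (0.993), the lectin Mgl2 (0.985), and Cd55, a brake on complement (0.983). Klf9 read 6.01 and 6.02 in CX3CR1high, 6.86 and 7.06 in CX3CR1int, and 7.16 and 7.08 in CX3CR1low samples. Both CX3CR1high samples of Klf9 were lowest, as the choice by likeness to Cd209d favours, so that no test is given for the genes picked in this way.

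Cd209g came closest to Cpa3, the mast cell carboxypeptidase (r = 0.993), and then to Enpep, an aminopeptidase (0.992), Egfr (0.991), the complement gene C4b (0.990) and Dnm1, a dynamin (0.988). Cd209b came closest to Wfdc17, a small secreted protein of macrophages (0.993), then to C4b (0.993), Gask1b (0.984), the metalloprotease inhibitor gene Timp1 (0.984) and Cd209g (0.983). Within the family Cd209d correlated with Cd209g at 0.980, with Cd209b at 0.975 and with Cd209e at 0.840, but with the brightest probe sets of Cd209a and Cd209c at 0.096 and -0.271. C4b read 6.59 and 6.95 in CX3CR1high, 8.47 and 9.35 in CX3CR1int, and 9.94 and 9.51 in CX3CR1low samples. As in Cd209b, both CX3CR1high samples were lowest and the CX3CR1low sample 1 was highest.

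**Figure D4:**
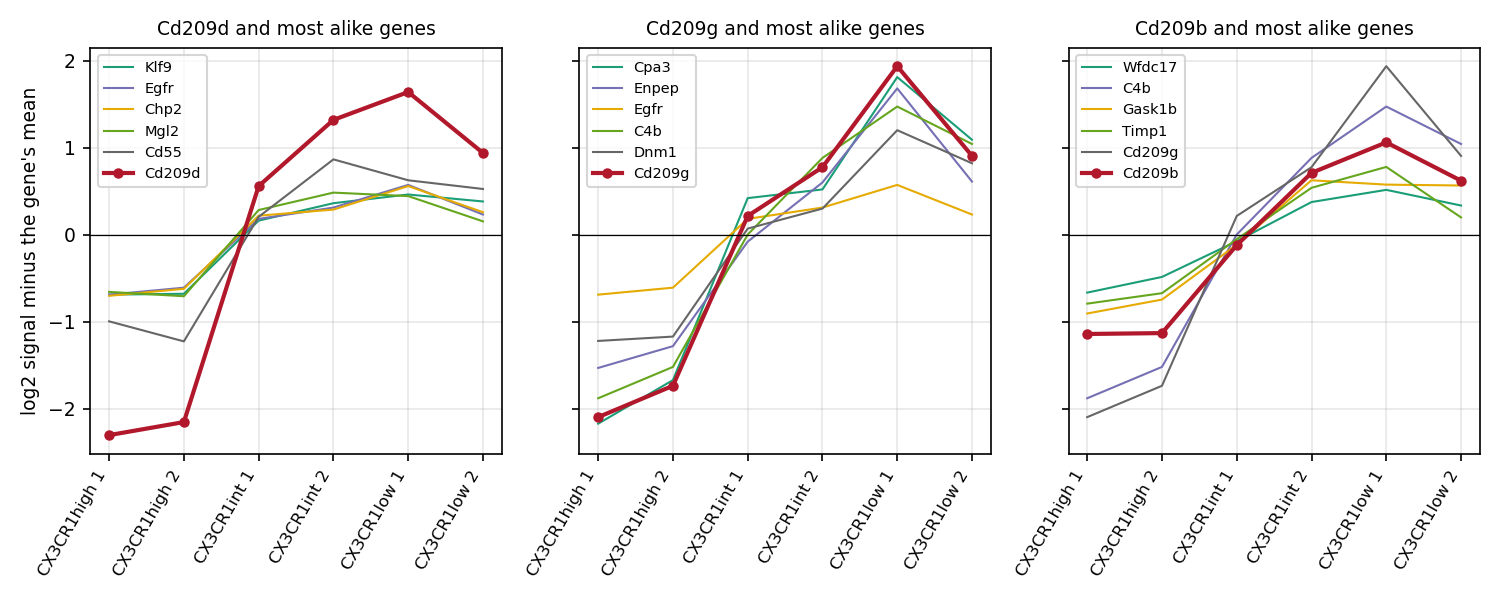
Log2 signal minus the gene's own mean (vertical axis) in the 6 samples (horizontal axis) for Cd209d, Cd209g and Cd209b in red and the 5 genes with the highest Pearson's r to each, with lines that only guide the eye. Each profile is low in both CX3CR1high samples, and Cd209d has a wider range than the genes most like it.

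Of the genes that work with the lectins 1 was called. Of 81 listed genes for ligands, signalling, regulation and the IgG response linked to DC-SIGN, 68 were tested, 2 lay below the dim level and 11 were not analysed here. Between CX3CR1high and CX3CR1low cells 1 was called, Il10, and it was higher, where 0.399% of all genes were called. Their median difference was -0.03, against 0.005 over all genes tested, with 32 higher and 35 lower. An unadjusted p of 0.05 was passed by 15 of the 68 between CX3CR1high and CX3CR1low cells, and by 1499 of 15529 genes in all. In the other comparisons limma called 0. Between CX3CR1high and CX3CR1int cells 7 passed the unadjusted p, and 1226 genes in all, and between CX3CR1int and CX3CR1low cells 4 passed it, and 759 genes in all.

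Il10 encodes a cytokine that dampens inflammation and that human DC-SIGN signalling can raise. It read 11.36 and 11.16 in CX3CR1high, 10.13 and 10.28 in CX3CR1int, and 10.33 and 9.96 in CX3CR1low samples, so that both CX3CR1high samples were above all others. The difference was 1.12 ± 0.16 (SE) between CX3CR1high and CX3CR1low cells (limma, adjusted p = 0.0370) and 1.06 between CX3CR1high and CX3CR1int cells (adjusted p = 0.0732, or 0.0346 where the model also had the replicate number as a block). The call against CX3CR1low cells was lost when any single sample was left out, where 0 pathway genes were called.

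Among 35 tested ligand and signalling genes the actin-binding adaptor Lsp1, a partner of human DC-SIGN, read 9.06 and 8.49 in CX3CR1high, 8.49 and 7.89 in CX3CR1int, and 7.37 and 7.67 in CX3CR1low samples (limma, adjusted p = 0.114 between CX3CR1high and CX3CR1low cells). Il12b, a chain shared within the interleukin 12 family, differed by 0.60 (adjusted p = 0.405). Of 24 tested genes that feed into Cd209 expression or macrophage fate, 0 were called by limma and 5 passed an unadjusted p of 0.05 between CX3CR1high and CX3CR1low cells. The transcription factor gene Klf4 differed by -0.77 (adjusted p = 0.113), Irf4, a factor downstream of interleukin 4, by -0.78 (0.179), and the TGF-beta receptor gene Tgfbr1 by 0.97 (0.158). Of 9 tested genes of the response to sialylated IgG, in which human DC-SIGN and SIGNR1 take part, 0 were called and 2 passed an unadjusted p of 0.05. The inhibitory IgG receptor gene Fcgr2b differed by -0.65 (adjusted p = 0.255), the IgG transport receptor gene Fcgrt by -0.49 (0.394), and the alarmin gene Il33 by -0.28 (0.661).

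Mast cell, keratinocyte, fibroblast and endothelial markers were lower in CX3CR1high than in CX3CR1low samples in their summed level, as were 7 of the 9 Cd209 probe sets. The same held for markers of resident dermal or perivascular macrophages, at 78.7 and 80.6 in CX3CR1high and 82.7 and 82.2 in CX3CR1low samples. General macrophage markers summed to 73.0 and 73.2 in CX3CR1high and 74.1 and 73.2 in CX3CR1low samples. Sums of dendritic cell markers were higher in CX3CR1high samples, and those of monocyte markers overlapped. The summed log2 level of 7 mast cell markers was 30.1 and 29.6 in CX3CR1high, 36.0 and 35.5 in CX3CR1int, and 39.7 and 37.4 in CX3CR1low samples. Cpa3, Mcpt4 and Cma1 were called lower in CX3CR1high than in CX3CR1low cells, 3 of 5 tested, where 0.187% of all genes were called lower. All 5 were at an unadjusted limma p under 0.05, as were 1499 of 15529 genes in all. Fcer1a and Ms4a2, also on the list, lay below the dim level. Cpa3 read 3.82 and 4.32 in CX3CR1high, 6.41 and 6.51 in CX3CR1int, and 7.80 and 7.08 in CX3CR1low samples. It was higher in the CX3CR1low sample 1 than in sample 2, as were 7 of the 9 Cd209 probe sets.

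Sums over 11 keratinocyte markers were 66.4 and 66.6 in CX3CR1high, 66.3 and 68.4 in CX3CR1int, and 71.3 and 77.7 in CX3CR1low samples, with 1 of 11 called lower between CX3CR1high and CX3CR1low cells and 7 at an unadjusted p under 0.05. Sums over 10 fibroblast markers were 67.0 and 67.4 in CX3CR1high, 69.6 and 70.9 in CX3CR1int, and 73.1 and 78.1 in CX3CR1low samples, with 0 of 10 called by limma, 8 at an unadjusted p under 0.05 and 6 called lower with the replicate block. Among all 15529 genes tested between CX3CR1high and CX3CR1low cells, 0.187% were called lower and 1499 passed the unadjusted p. With the replicate block 78 genes in all were called lower. Within the CX3CR1low subset both lists were higher in sample 2, where 7 of the 9 Cd209 probe sets were lower and the brightest of Cd209a and of Cd209c were higher. The 5 monocyte markers summed to 25.3 and 26.8 in CX3CR1high, 30.1 and 33.9 in CX3CR1int, and 25.8 and 31.7 in CX3CR1low samples. Of 4 tested, 0 were called against CX3CR1low cells (2 at an unadjusted p under 0.05, and 1 called lower with the replicate block). In that comparison 2 were higher and 2 lower in CX3CR1high cells. Against CX3CR1int cells Ly6c2 was called lower, where 0.0644% of all genes tested were called lower. Of the 4, 3 were lower there while Ccr2 was higher, by 0.57 and not called. The 9 dendritic and Langerhans cell markers had sums of 49.3 and 48.8 in CX3CR1high, 48.5 and 48.5 in CX3CR1int, and 47.5 and 47.6 in CX3CR1low samples, with 0 of 8 called against CX3CR1low cells (4 at an unadjusted p under 0.05, and 1 called higher and 1 lower with the replicate block), and Dpp4 below the dim level. Endothelial sums were 37.9 and 36.6 in CX3CR1high, 36.9 and 37.3 in CX3CR1int, and 38.5 and 40.6 in CX3CR1low samples over 8 markers, with Emcn, Kdr, Prox1 and Stab2 below the dim level and 0 of 4 tested called, 1 at an unadjusted p under 0.05 against CX3CR1low cells. The part of any of these cells in the Cd209 values was not tested.

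Markers of resident dermal and perivascular macrophages were read beside the lectins. Of 8 such genes 0 were called by limma between CX3CR1high and CX3CR1low cells, 4 passed an unadjusted p of 0.05, 1 was called lower with the replicate block, and the median difference was -0.33. Over all 15529 genes tested 0.187% were called lower, 1499 passed the unadjusted p, 78 were called lower with the block, and the median was 0.005. Cd163, the haemoglobin scavenger receptor, read 9.79 and 10.28 in CX3CR1high, 10.79 and 10.92 in CX3CR1int, and 10.94 and 10.94 in CX3CR1low samples (-0.91 ± 0.17, SE, limma adjusted p = 0.0829, or 0.0305 with the replicate block). Folr2, a folate receptor, differed by -0.79 (adjusted p = 0.173), while the mannose receptor gene Mrc1 differed by -0.10 and Lyve1, a hyaluronan receptor, by 0.20. Both CX3CR1high samples were lowest in 4 of the 8, Cd163, Folr2, F13a1 and Gas6, and in 8.83% of all genes tested. The same held for 4 of 5 mast cell, 5 of 10 fibroblast, 3 of 11 keratinocyte and 2 of 7 macrophage markers tested. It held for 1 of 4 monocyte, 1 of 8 dendritic and Langerhans cell, and 0 of 4 endothelial markers tested.

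**Figure D5:**
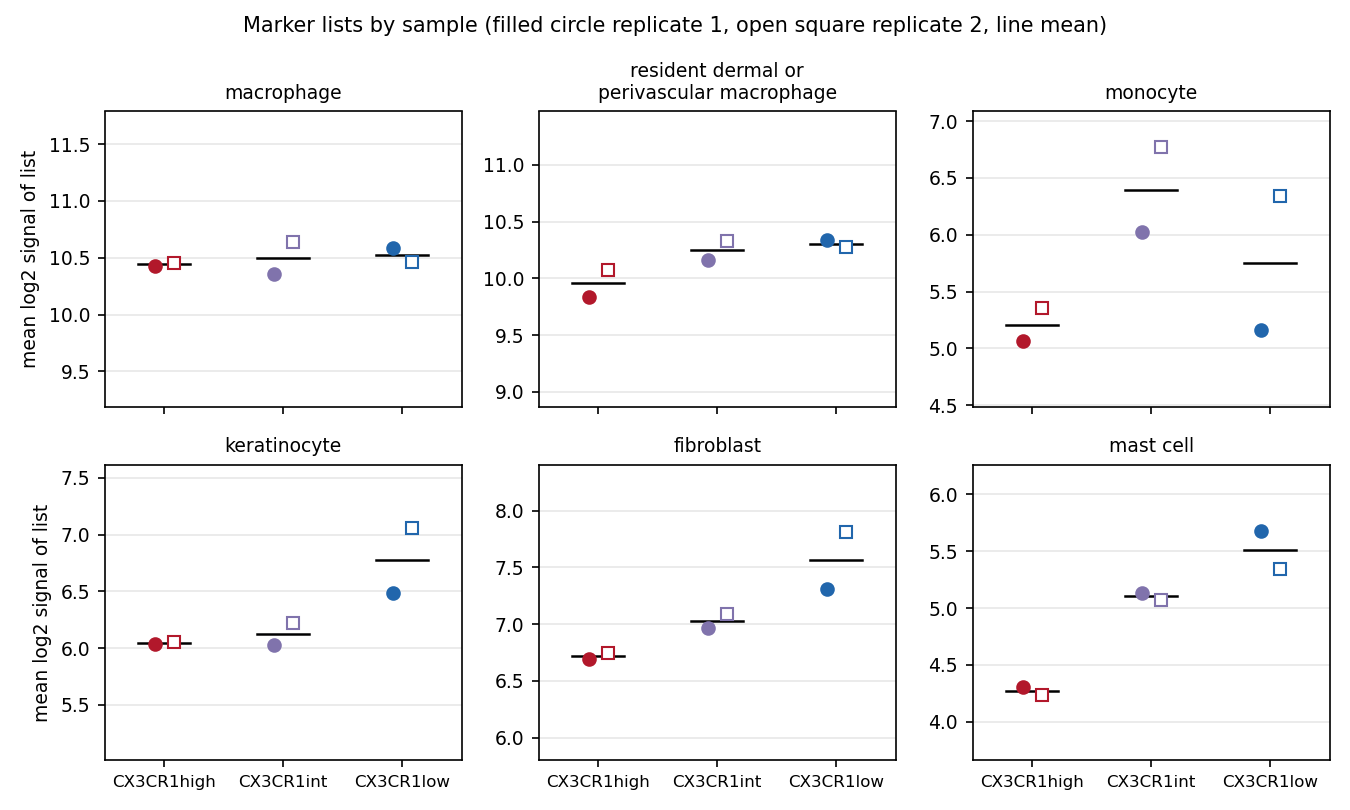
Mean log2 signal (vertical axis, each panel spanning the same range) of 6 marker lists in CX3CR1high, CX3CR1int and CX3CR1low samples (horizontal axis), with replicate 1 as a filled circle, replicate 2 as an open square and the mean as a line. The mast cell, fibroblast and resident macrophage lists are lowest in both CX3CR1high samples. The keratinocyte and fibroblast lists are highest in the CX3CR1low sample 2.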

How the data were processed

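Per the submitters' processing notes, the authors made the deposited log2 values by RMA in Affymetrix Expression Console 1.4. The genome build and the annotation they used are not given in the sources used here. Per the labels' protocols, total RNA of the sorted cells was amplified with a NuGEN Ovation kit. Of 34390 probe sets, 23521 had 1 gene symbol in the platform annotation, and the brightest on average stood for its gene where a gene had several. Genes whose mean over the 6 arrays fell under the 30th percentile (4.335) were dropped as dim, which left 15529 of 22180 genes. The main model, in R 4.3.3 with limma 3.58.1, had a mean per subset, a variance prior with an intensity trend and two-sided tests with Benjamini-Hochberg adjustment over all genes, called at 0.05. SEs of dimmer or shared probe sets came from the same model over all probe sets. The fit was tested on simulated data.

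Samples of equal replicate number deviated together from their subset means, with correlations over genes of 0.136 between CX3CR1high and CX3CR1low, 0.178 between CX3CR1high and CX3CR1int, and 0.146 between CX3CR1int and CX3CR1low samples. The labels do not say that a replicate number marks the same litter in each subset. The differences, SEs and calls above are from the main model, which does not pair samples, unless another setting is named. Since all correlations exceeded 0.1, a replicate block, which assumes that the number pairs samples, was run beside the main model. It kept the members' calls and raised the genes called to 154 between CX3CR1high and CX3CR1low and 47 between CX3CR1high and CX3CR1int cells, against 62 and 22 without it.

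Promoters were compared in Biopython 1.88. The members and lists were chosen with earlier results of these data known. Named genes were the members, Cx3cr1, called pathway genes and the 3 of smallest p per pathway list, the 5 genes most like a member, and the 6 genes on each side of the cluster. Individual marker genes, the members' shared stretches of promoter and the steps between subsets were picked after their values were seen.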

Additional observations from a re-analysis of the deposited data

How the results depend on the processing

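The alternatives changed how many genes passed, and no called member difference changed sign. Without the filter on dim genes, 26 genes were called between CX3CR1high and CX3CR1low cells, against 62, and 0 in both other comparisons, with 0 pathway genes, 0 members against CX3CR1int and 2 members against CX3CR1low cells, where Cd209b was not called. Without the intensity trend 4 genes and 1 member were called between CX3CR1high and CX3CR1int cells, 0 genes between CX3CR1int and CX3CR1low cells, and 0 pathway genes. With arrays centred on their medians 40 genes (17 higher, 23 lower, against 33 and 29) were called between CX3CR1high and CX3CR1low cells and 14 genes, 1 member among them, between CX3CR1high and CX3CR1int cells, with 0 pathway genes. With every probe set on its own, 5 members were called against CX3CR1low cells, and 14 genes with 1 member against CX3CR1int cells. The replicate block called 154, 47 and 0 genes in the 3 comparisons, the last against 1, and 1 pathway gene against CX3CR1int cells. Leaving out each sample gave 0 to 39 genes, 0 to 3 members and 0 pathway genes between CX3CR1high and CX3CR1low cells, 0 to 17 genes and 0 to 2 members between CX3CR1high and CX3CR1int cells, and 0 genes between CX3CR1int and CX3CR1low cells. The lone sample left in a subset was then assumed to vary like the others. The mean of a gene's probe sets moved the difference between CX3CR1high and CX3CR1low cells to -1.44 for Cd209a, against -0.21, and to -0.61 for Cd209c, against 0.28, and 4 members were called. By construction this mixes probe sets that disagree, and for the other changes the cause was not tested. Signals near the dim level limit Cd209e and the dimmer probe set of Cd209c.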
